A study of Homo sapiens with 16 samples.

Results

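The factors described here are 10 genes that mark or maintain the pluripotent state of human embryonic stem cells: POU5F1, NANOG, SOX2, LIN28A, LIN28B, DPPA4, ZFP42, ZSCAN10, UTF1 and PRDM14. They were chosen by name from the 60675 Ensembl identifiers of a table of raw gene counts, and all 10 were found in it. The cells were of H9, an established human embryonic stem cell line, and in every group they carried a Rex1-EGFP reporter, in which EGFP is driven by the Rex1 promoter. Cells received pooled siRNAs against 1 of 4 genes, with 3 libraries each: SALL4 (a zinc finger transcription factor), VRTN, DSCC1 (a replication clamp loader subunit that helps sister chromatids cohere) or SEPHS1 (a selenophosphate synthetase family member). The controls were a Luciferase siRNA and a second siRNA labelled Control, with 2 libraries each. All transfections used 30 to 50 nM siRNA without feeder cells. The SALL4, DSCC1, SEPHS1 and Luciferase reagents were esiRNAs and the VRTN reagent came from another supplier. By the extraction protocol, cells were harvested 48 h after transfection for SALL4 and VRTN and 72 h after it for DSCC1 and SEPHS1. The growth protocol gives a different time, and no time is stated for the controls. Against controls, and between the 48 h and 72 h groups, harvest time and target therefore cannot be told apart. SALL4 and VRTN shared a stated time, as did DSCC1 and SEPHS1, but in comparisons with VRTN the kind of reagent also differed.

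POU5F1 (OCT4) and SOX2 bind DNA side by side as a heterodimer at many enhancers of stem cells, and NANOG joins them in a mutually reinforcing circuit. LIN28A and LIN28B are RNA-binding proteins that block maturation of let-7 microRNAs, while DPPA4, ZSCAN10, UTF1 and PRDM14 are nuclear factors that work on chromatin or transcription in early embryonic and germ cells. In human cells these genes are used in the primed state, which resembles the epiblast after implantation, and ZFP42 (REX1) is a widely used marker whose promoter drives the reporter of these cells.

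Library totals ran from 18597262 to 28662389 counts, so that 3 counts correspond to 0.105 to 0.161 CPM, counts scaled to the size of the library. Of the 60675 identifiers, 19772 passed a filter on low counts and were tested. The siRNA targets were lower in their own libraries. SALL4 had 193, 213 and 235 CPM in SALL4 siRNA libraries, against 243 to 303 CPM in controls, a difference that edgeR's quasi-likelihood test did not call (log2 fold change -0.36, adjusted p = 0.0562). VRTN fell by 2.75 on the log2 scale in its own libraries (adjusted p = 2.04e-16), and SEPHS1 fell by 2.75 in its own (adjusted p = 9.09e-15). DSCC1 had 0.601 to 0.938 CPM in DSCC1 siRNA libraries and 3.3 to 5.16 CPM in controls, with a log2 fold change of -2.27 that was not called (adjusted p = 0.486). In bulk RNA of this kind, a change in the share of cells that express a gene and a change in RNA per cell cannot be told apart.

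Of the 10 factors, 9 passed the filter. ZFP42 did not, because it was listed at 0 in all 16 libraries. Its exons overlap no other annotated gene, yet POLR2F, an RNA polymerase II subunit that every cell uses, was also listed at 0 in all 16 libraries, as were 3504 of 19693 protein-coding genes. The zero for ZFP42 is therefore given only as the listed value, and no fold change is given. POLR2A, the largest subunit of the same polymerase, had 7703 to 14091 counts per library.

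The promoters of UTF1, DPPA4 and ZSCAN10, which are among the 4 factors called against controls, are shown first, together with that of NANOG, whose promoter carries the classical composite element for OCT4 and SOX2. Promoters of 7 of the 10 factors were taken from RefSeq's GRCh38.p14 promoter table, and PRDM14 is not among the 7. Each promoter holds 250 bases before and 50 bases after a transcription start. Capitals mark the octamer core ATGCAA and the SOX matches ACAAAG and ACAATG, searched on both strands. Position is given in bases before the start.
NANOG promoter, plus strand, chr12:7789152-7789451: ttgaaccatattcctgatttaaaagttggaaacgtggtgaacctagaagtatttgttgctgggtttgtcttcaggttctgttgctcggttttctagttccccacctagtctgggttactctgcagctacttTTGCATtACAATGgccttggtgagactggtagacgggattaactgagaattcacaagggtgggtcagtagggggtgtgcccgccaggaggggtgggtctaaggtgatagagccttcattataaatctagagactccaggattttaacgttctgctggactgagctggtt
UTF1 promoter, plus strand, chr10:133229967-133230266: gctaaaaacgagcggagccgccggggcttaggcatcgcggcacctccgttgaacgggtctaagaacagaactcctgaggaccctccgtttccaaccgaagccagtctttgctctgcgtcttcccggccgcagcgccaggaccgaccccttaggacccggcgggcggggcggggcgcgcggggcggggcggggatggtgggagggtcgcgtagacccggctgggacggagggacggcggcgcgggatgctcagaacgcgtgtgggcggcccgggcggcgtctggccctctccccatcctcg
DPPA4 promoter, minus strand, chr3:109337497-109337796: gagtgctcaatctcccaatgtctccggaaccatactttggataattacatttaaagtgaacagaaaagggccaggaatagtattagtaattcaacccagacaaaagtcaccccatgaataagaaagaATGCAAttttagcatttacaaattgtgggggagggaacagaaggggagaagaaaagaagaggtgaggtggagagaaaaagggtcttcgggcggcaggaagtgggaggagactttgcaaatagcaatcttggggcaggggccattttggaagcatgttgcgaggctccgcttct
ZSCAN10 promoter, minus strand, chr16:3099245-3099544: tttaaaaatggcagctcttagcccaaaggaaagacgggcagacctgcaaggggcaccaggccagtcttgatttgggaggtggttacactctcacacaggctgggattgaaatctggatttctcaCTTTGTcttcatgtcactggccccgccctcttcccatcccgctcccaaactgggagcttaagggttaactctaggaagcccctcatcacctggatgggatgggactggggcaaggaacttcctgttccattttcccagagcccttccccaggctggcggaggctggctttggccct

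In the NANOG promoter the octamer core lies on the opposite strand at bases -119 to -114, and the SOX match ACAATG begins 1 base farther on, at -112. Over all 35116 promoters in the table, 10.1% hold the octamer core, 10.8% hold ACAATG, and 1.8% hold both. DPPA4 has an octamer core that begins at -123, and ZSCAN10 has ACAAAG on the opposite strand from -126, a match that 16.1% of promoters hold. UTF1 has none of these matches in its window but has 6 copies of the GC box GGGCGG, some of which overlap by a base, and 45.0% of all promoters have at least 1. The UTF1 window is 71.7% G and C, against a median of 58.7% over all promoters. These matches describe the letters only, and binding was not measured.

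In control cells the factors spanned a wide range of level per length. LIN28A had 242 ± 24.7 CPM per kb of exon (SD, n = 4) and ranked 135 among 19626 tested genes with a known length. ZSCAN10 followed with 121 ± 8.01, SOX2 with 79 ± 5.44 and POU5F1 with 68.4 ± 3.69 CPM per kb (SD, n = 4 each). DPPA4 averaged 60.3 ± 3.72, UTF1 57 ± 4.4 and PRDM14 49.3 ± 3.58 CPM per kb (SD, n = 4 each). The control ranges overlapped between SOX2 and POU5F1, between DPPA4 and UTF1, and between UTF1 and PRDM14, though SOX2 stood above POU5F1 within each of the 4 control libraries. These levels leave out reads listed under annotated copies of POU5F1 and NANOG. POU5F1 held only 61.8 to 67.9% and NANOG 46.7 to 56.4% of the reads of gene and copies over the 16 libraries. The order of SOX2 and POU5F1 is therefore uncertain. NANOG stood well below that group at 15.9 ± 2.05 CPM per kb (rank 1886), and LIN28B lowest of the 9 at 1.96 ± 0.459 CPM per kb (rank 7798; SD, n = 4 each).

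**Figure D1:**
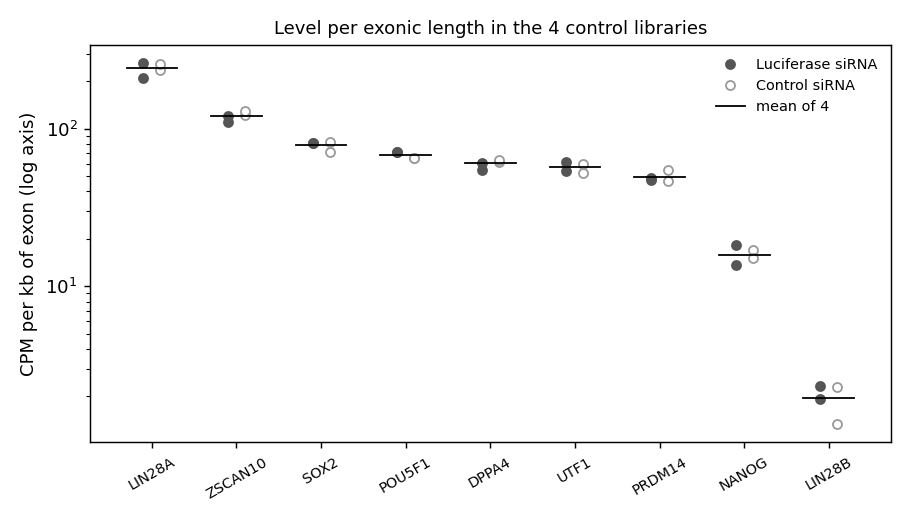
Level of 9 pluripotency factors in the control libraries, as CPM per kb of exon on a log axis. Filled points are the 2 Luciferase libraries, open points the 2 Control libraries, and bars the mean of 4; LIN28A stands highest at 242 and LIN28B lowest at 1.96, while the points of UTF1 overlap those of DPPA4 and of PRDM14.

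Few of the factors passed the test in any knockdown, and no factor passed it against controls in more than 1. With SALL4 siRNA 1 of the 9 tested factors was called and it was lower (PRDM14), where 2.98% of all genes tested were called in either direction. With VRTN siRNA 1 was higher (DPPA4) and 1 lower (UTF1), against a background of 1.13%. With SEPHS1 siRNA 1 was lower (ZSCAN10), against 1.53%. With DSCC1 siRNA none of the 9 was called by edgeR, against 0.0455% of all genes. At an unadjusted p under 0.05 that comparison held 1 factor, LIN28A, and 1155 of all 19772 genes tested. DESeq2 and limma-voom each called LIN28A there, as did 4 of 28 alternatives in total. The median log2 fold change over the 9 factors was 0.10 with SALL4 siRNA, 0.10 with VRTN siRNA, -0.02 with DSCC1 siRNA and 0.07 with SEPHS1 siRNA, and over all genes tested it was 0.02, 0.02, 0.00 and -0.02 in the same order. All 4 comparisons share the same 4 control libraries.

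**Figure D2:**
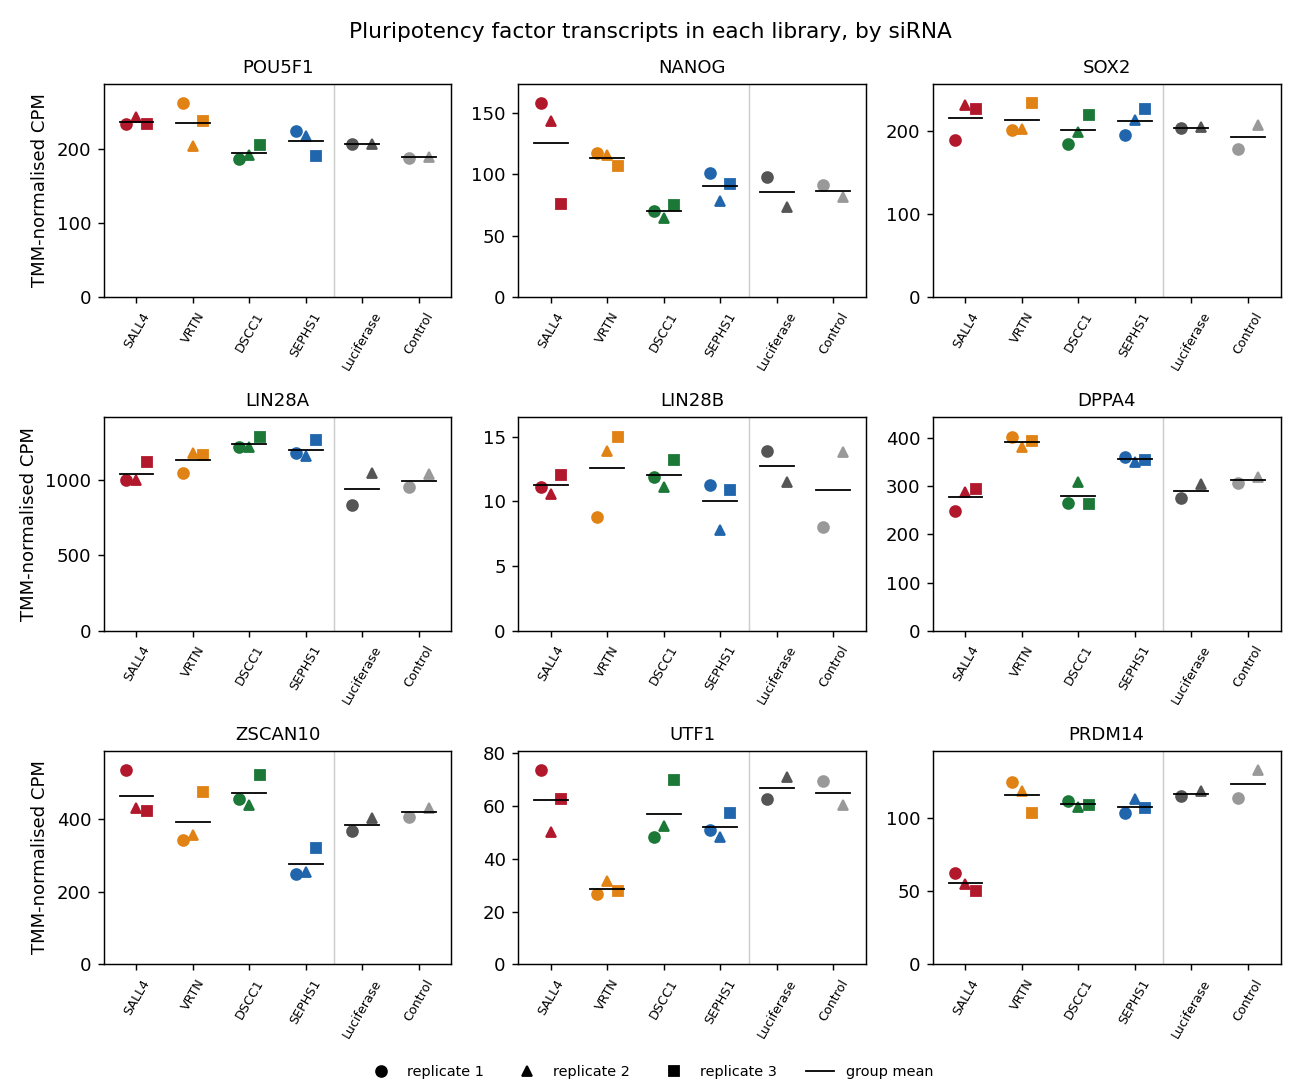
TMM-normalised CPM of 9 pluripotency factors in each library, on linear axes that start at 0, with knockdown groups on the left of the grey line and the control siRNAs on the right. Points are libraries, their shape gives the replicate number and bars are group means; PRDM14 is low in SALL4 libraries, UTF1 in VRTN libraries and ZSCAN10 in SEPHS1 libraries.

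PRDM14, a PR-domain zinc finger protein that recruits repressive complexes and activates POU5F1 in human stem cells, fell with SALL4 siRNA. PRDM14 (chromosome 8, 70051651 to 70071693, minus strand, GRCh38) had 62.9, 54.9 and 50.2 CPM in SALL4 libraries, against 115 and 119 CPM in Luciferase libraries and 114 and 133 CPM in Control libraries. All 3 SALL4 libraries lay below every one of the other 13, so the groups did not overlap. The group means were 56 ± 6.42 CPM in SALL4 libraries (SD, n = 3) and 120 ± 8.76 CPM in controls (SD, n = 4), and the log2 fold change was -1.10 ± 0.12 (SE) by edgeR's quasi-likelihood test (adjusted p = 2.04e-07).

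The other knockdowns left PRDM14 close to the controls. It had 104 to 125 CPM in VRTN libraries, 108 to 112 CPM in DSCC1 libraries and 104 to 113 CPM in SEPHS1 libraries, against 114 to 133 CPM in controls. The DSCC1 and SEPHS1 libraries all lay just under the lowest control, but the log2 fold changes of -0.13 and -0.16 were not called (adjusted p = 0.959 and 0.603 by edgeR). Set directly against one another, SALL4 libraries were lower in PRDM14 than VRTN libraries by a log2 fold change of -1.05 ± 0.13 (adjusted p = 1.47e-06), a comparison in which 2.44% of genes were called. Against DSCC1 libraries the log2 fold change was -0.97 ± 0.13 (adjusted p = 8.24e-06; 3.12% of genes called), and against SEPHS1 libraries it was -0.95 ± 0.13 (adjusted p = 6.75e-06; 5.8% of genes called). The decrease was therefore larger with SALL4 siRNA than with each of the other 3 siRNAs by a test of the difference itself.

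Partners and reported targets of PRDM14 were followed as a list of 16, all of them tested. Like the other lists below, it was chosen with earlier results of these data known. With SALL4 siRNA 2 were lower and none higher, at a median log2 fold change of -0.24 against 0.02 over all genes. DNMT3B, the de novo DNA methyltransferase of the early embryo, had 397, 378 and 601 CPM in SALL4 libraries, against 964 to 1340 CPM in controls. JARID2, a Polycomb cofactor, had 253, 265 and 223 CPM in SALL4 libraries, against 313 to 373 CPM in controls. Neither gene's SALL4 libraries overlapped the controls, with log2 fold changes of -1.31 (adjusted p = 1.7e-08) and -0.49 (adjusted p = 0.0205) by edgeR. CBFA2T2, the corepressor that PRDM14 binds, had 35.1, 28.6 and 27.0 CPM in SALL4 libraries and 19.9 to 27.4 CPM in controls and was not called. With VRTN siRNA 1 of the 16 was lower, TFAP2C, a germ cell and trophoblast transcription factor (log2 fold change -1.0, adjusted p = 0.045), and with DSCC1 and SEPHS1 siRNA edgeR called none. The share of all genes tested that was called lower was 1.13% with SALL4 siRNA and 0.683% with VRTN siRNA.

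UTF1, a chromatin-bound factor of undifferentiated cells, fell with VRTN siRNA. UTF1 (chromosome 10, 133230274 to 133231558, plus strand, GRCh38) had 26.5, 31.7 and 27.8 CPM in VRTN libraries, against 62.8 and 71.0 CPM in Luciferase libraries and 69.5 and 60.5 CPM in Control libraries. The VRTN libraries were the lowest 3 of all 16 and did not overlap any other group. The means were 28.7 ± 2.69 CPM in VRTN libraries (SD, n = 3) and 66 ± 5.09 CPM in controls (SD, n = 4), and the log2 fold change was -1.20 ± 0.16 (SE) by edgeR (adjusted p = 1.28e-05).

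With SALL4 siRNA, UTF1 had 73.6, 50.2 and 62.8 CPM, which spans the control range (log2 fold change -0.08, adjusted p = 0.92 by edgeR). With DSCC1 siRNA it had 48.4, 52.6 and 69.7 CPM (log2 fold change -0.21, adjusted p = 0.899). With SEPHS1 siRNA it had 51.0, 48.1 and 57.3 CPM, all below the lowest control of 60.5, with a log2 fold change of -0.34 ± 0.15 that was not called (adjusted p = 0.343). Direct comparisons separated VRTN from the other 3 knockdowns. The log2 fold change of UTF1 was 1.12 ± 0.16 for SALL4 over VRTN (adjusted p = 3.81e-05), -0.99 ± 0.16 for VRTN over DSCC1 (adjusted p = 0.000501; 1.44% of genes called) and -0.86 ± 0.16 for VRTN over SEPHS1 (adjusted p = 0.00194; 2.19% of genes called).

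**Figure D3:**
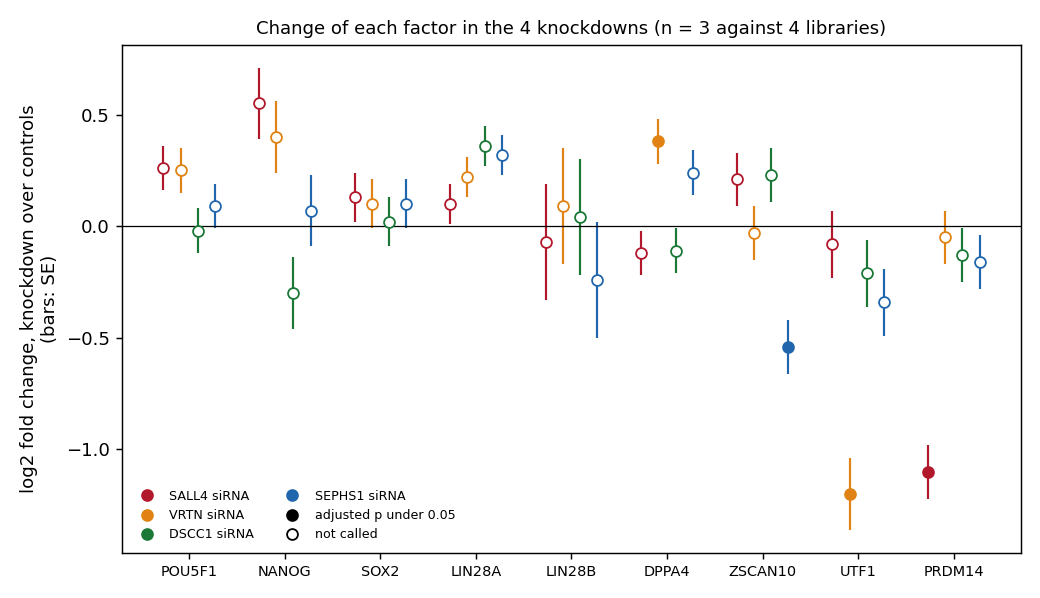
Log2 fold change of each factor in the 4 knockdowns over the 4 control libraries, with SE bars; n is 3 libraries per knockdown. Filled points have an adjusted p under 0.05 by edgeR's quasi-likelihood test: PRDM14 at -1.10 with SALL4 siRNA, UTF1 at -1.20 and DPPA4 at 0.38 with VRTN siRNA, and ZSCAN10 at -0.54 with SEPHS1 siRNA.

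DPPA4, a DNA-binding SAP-domain protein found on active chromatin in pluripotent cells, was the only one of the 9 tested factors that edgeR called higher in a knockdown. DPPA4 (chromosome 3, 109326141 to 109337572, minus strand, GRCh38) had 403, 382 and 393 CPM in VRTN libraries, against 275 and 305 CPM in Luciferase libraries and 306 and 319 CPM in Control libraries. The VRTN libraries were the 3 highest of the 16. The log2 fold change was 0.38 ± 0.10 (SE; n = 3 against 4; adjusted p = 0.0451 by edgeR), just inside the threshold. The call was lost in 18 of 28 alternatives, among them every one that left out a control or a VRTN library and those without SALL4 replicate 2, SEPHS1 replicate 2 or any 1 of the DSCC1 libraries, with values of 0.33 to 0.44 and adjusted p of 0.000369 to 0.422 over all 28.

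With SEPHS1 siRNA, DPPA4 had 361, 351 and 355 CPM, also above every control, at a log2 fold change of 0.24 ± 0.10 that was not called (adjusted p = 0.296 by edgeR). With SALL4 siRNA it had 249, 287 and 295 CPM (log2 fold change -0.12) and with DSCC1 siRNA 265, 308 and 264 CPM (log2 fold change -0.11), and both groups overlapped the controls. The knockdowns themselves differed: DPPA4 was lower in SALL4 libraries than in VRTN libraries by -0.50 ± 0.11 (log2; adjusted p = 0.00477) and lower in SALL4 than in SEPHS1 libraries by -0.36 ± 0.11 (adjusted p = 0.0377). It was higher in VRTN than in DSCC1 libraries by 0.49 ± 0.11 (log2; adjusted p = 0.0101). The first of these was lost without SALL4 replicate 1 (-0.43, adjusted p = 0.0505) and with only the groups compared in the fit (-0.49, adjusted p = 0.0736). The second was lost without SALL4 replicate 1 (-0.29), SALL4 replicate 2 (-0.37), any 1 of the SEPHS1 libraries (-0.37 to -0.35), Control replicate 2 (-0.36) or VRTN replicate 1 (-0.35), with adjusted p of 0.0502 to 0.216, and also with only the groups compared (-0.36, adjusted p = 0.126) and with no filter (-0.36, adjusted p = 0.05). The third was lost without DSCC1 replicate 1 or 3 (0.46 each) or VRTN replicate 1 (0.47), with adjusted p of 0.0579 to 0.0869. DPPA2, its binding partner, had 0 to 2.22 CPM in knockdown libraries and 0 to 0.996 CPM in controls, and was not called.

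ZSCAN10, a SCAN-domain zinc finger protein that in mouse stem cells binds SOX2 and OCT4, fell with SEPHS1 siRNA. ZSCAN10 (chromosome 16, 3088890 to 3099317, minus strand, GRCh38) had 250, 255 and 322 CPM in SEPHS1 libraries, against 368 and 403 CPM in Luciferase libraries and 408 and 432 CPM in Control libraries. Every SEPHS1 library lay below every other library of the series, the nearest being VRTN replicate 1 at 344 CPM. The means were 276 ± 40.4 CPM in SEPHS1 libraries (SD, n = 3) and 403 ± 26.6 CPM in controls (SD, n = 4), and the log2 fold change was -0.54 ± 0.12 (SE) by edgeR (adjusted p = 0.0128). The call was lost without SEPHS1 replicate 1 (log2 fold change -0.48, adjusted p = 0.079), without SEPHS1 replicate 2 (-0.48, adjusted p = 0.0947) and with Luciferase alone as the control (-0.48, adjusted p = 0.124).

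The remaining knockdowns had 344 to 536 CPM of ZSCAN10. With SALL4 siRNA it had 536, 432 and 424 CPM (log2 fold change 0.21, adjusted p = 0.479 by edgeR) and with VRTN siRNA 344, 358 and 477 CPM (-0.03, adjusted p = 1). With DSCC1 siRNA it had 456, 441 and 522 CPM, above every control, but the log2 fold change of 0.23 ± 0.12 was not called (adjusted p = 0.843). DSCC1 and SEPHS1 cells had the same stated harvest time. They differed in ZSCAN10 by 0.78 ± 0.13 (log2, DSCC1 over SEPHS1, adjusted p = 0.0012 by edgeR), a comparison in which 0.268% of genes were called. ZSCAN10 was also higher in SALL4 than in SEPHS1 libraries, by 0.75 ± 0.13 (adjusted p = 0.000253), and in VRTN than in SEPHS1 libraries, by 0.51 ± 0.13 (adjusted p = 0.0231). The VRTN difference lost its call in 5 of 24 alternatives, namely without VRTN replicate 3 (0.35, adjusted p = 0.193), SEPHS1 replicate 1 (0.45, adjusted p = 0.118) or SEPHS1 replicate 2 (0.45, adjusted p = 0.127), with only the groups compared (0.51, adjusted p = 0.106) and with limma-voom (0.47, adjusted p = 0.0549).

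NANOG, the homeodomain factor of the core circuit, varied more than POU5F1 and SOX2 and was not called against controls. NANOG had 158, 143 and 76.1 CPM in SALL4 libraries, against 98.2 and 73.1 CPM in Luciferase libraries and 91.4 and 81.4 CPM in Control libraries. SALL4 replicates 1 and 2 were the 2 highest of all 16 libraries, while replicate 3 fell inside the control range. The means were 126 ± 43.5 CPM in SALL4 libraries (SD, n = 3) and 86 ± 11 CPM in controls (SD, n = 4), and the log2 fold change was 0.55 ± 0.16 (SE) by edgeR (adjusted p = 0.0542). It was called without SALL4 replicate 3 (0.82, adjusted p = 5.88e-05), without Luciferase replicate 1 (0.66, adjusted p = 0.00236) and without Control replicate 1 (0.59, adjusted p = 0.0189), and over 29 alternatives it was 0.35 to 0.82 and called in 10. That replicate had the highest SALL4 level of its group, 235 CPM against 193 and 213 CPM in the other SALL4 libraries, and the part of that difference in the result was not tested.

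With VRTN siRNA, NANOG had 117, 116 and 107 CPM, all above the controls, at a log2 fold change of 0.40 ± 0.16 that was not called (adjusted p = 0.371 by edgeR). With DSCC1 siRNA it had 70.0, 64.7 and 75.2 CPM (log2 fold change -0.30, adjusted p = 0.843) and with SEPHS1 siRNA 101, 78.1 and 92.2 CPM (0.07, adjusted p = 0.938), and both overlapped the controls. Between knockdowns, NANOG was higher in SALL4 than in DSCC1 libraries by 0.85 ± 0.17 (log2; adjusted p = 0.00333) and in VRTN than in DSCC1 libraries by 0.69 ± 0.17 (adjusted p = 0.031). The first of these lost its call without SALL4 replicate 1 (0.65, adjusted p = 0.0534) and with only the groups compared in the fit (0.85, adjusted p = 0.0536). The second lost its call without any 1 of the DSCC1 libraries (0.64 to 0.75) and without VRTN replicate 1 or VRTN replicate 2 (0.67 and 0.68), with adjusted p of 0.1 to 0.174, and with a minimum of 1 CPM in 3 libraries (0.69, adjusted p = 0.058).

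POU5F1, the POU-domain factor at the centre of the circuit, changed little. POU5F1 had 234, 243 and 234 CPM in SALL4 libraries, against 207 and 207 CPM in Luciferase libraries and 188 and 189 CPM in Control libraries. The SALL4 libraries all lay above the controls, at a log2 fold change of 0.26 ± 0.10 that edgeR did not call (adjusted p = 0.234) and limma-voom did (0.27, adjusted p = 0.0439). With VRTN siRNA it had 262, 204 and 238 CPM (log2 fold change 0.25, adjusted p = 0.409). With DSCC1 siRNA it had 186, 192 and 206 CPM (-0.02) and with SEPHS1 siRNA 224, 218 and 191 CPM (0.09), within or across the control range.

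SOX2, the HMG-box partner of OCT4, had the smallest spread of the 9 tested factors, with an SD of 0.12 in log2 CPM over the 16 libraries. SOX2 had 190, 232 and 227 CPM in SALL4 libraries, 202, 203 and 234 CPM in VRTN libraries, 185, 199 and 220 CPM in DSCC1 libraries and 196, 214 and 227 CPM in SEPHS1 libraries, against 204, 205, 178 and 207 CPM in controls. All 4 groups overlapped the controls, and the log2 fold changes of 0.02 to 0.13 were not called. SOX2 lies inside an intron of the long noncoding RNA SOX2-OT without sharing an exon, and SOX2-OT had at most 103 counts in a library.

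**Figure D4:**
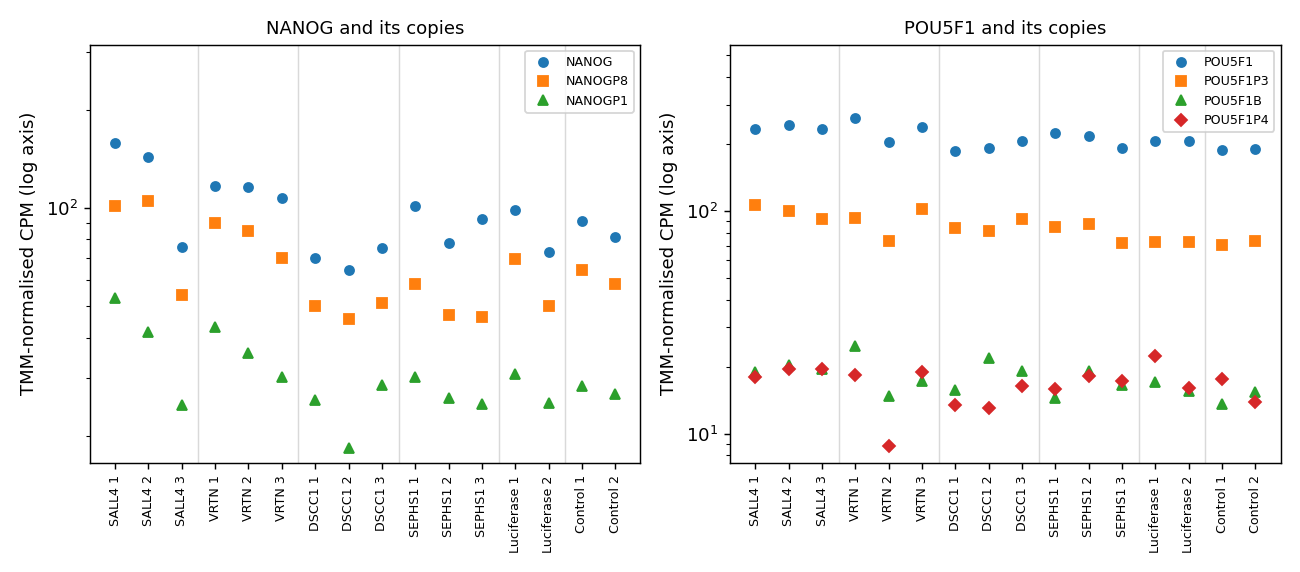
TMM-normalised CPM on log axes of NANOG and of POU5F1 with their annotated copies, in each of the 16 libraries, knockdown groups left of the control siRNAs. NANOGP8 and NANOGP1 are high where NANOG is high, in SALL4 replicates 1 and 2, and lower in SALL4 replicate 3 (53.9 and 24.9 CPM).

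NANOG and POU5F1 have annotated copies elsewhere in the genome. How reads shared with these copies were counted is not stated, so the levels of both genes are uncertain. NANOG held 46.7 to 56.4% of the reads of NANOG, NANOGP1 and NANOGP8 together in the 16 libraries, and POU5F1 held 61.8 to 67.9% of those of POU5F1, POU5F1B, POU5F1P3 and POU5F1P4. NANOGP8 had 101, 105 and 53.9 CPM in SALL4 libraries, against 49.9 to 69.5 CPM in controls, high and low in the same libraries as NANOG. POU5F1P3 had 107, 100 and 92.4 CPM in SALL4 libraries, against 70.2 to 73.6 CPM in controls, and was called higher (log2 fold change 0.47, adjusted p = 0.0313 by edgeR). With the copies summed, NANOG had a log2 fold change of 0.53 with SALL4 siRNA (adjusted p = 0.0494). TCF19 lies opposite POU5F1 and shares 248 exonic bases with it, 8.6% of its exonic length, and had 71 to 346 counts per library.

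Of the related genes that are not copies, SOX3 was called higher with SALL4 siRNA and SOX21 with VRTN siRNA. SOX3, a close relative of SOX2, had 40.6, 44.2 and 50.0 CPM in SALL4 libraries, against 14.8 to 21.9 CPM in controls (log2 fold change 1.40, adjusted p = 8.1e-05 by edgeR). SOX21, another SOX family member, had 9.34, 12.4 and 16.9 CPM in VRTN libraries, against 1.44 to 5.00 CPM in controls (log2 fold change 2.28, adjusted p = 0.0252). Neither group overlapped its controls. Of the 26 paralogues and pseudogenes listed, 17 were tested. With SALL4 siRNA 2 of them were higher and 1 lower (POU2F1, log2 fold change -0.54, adjusted p = 0.0452), and with DSCC1 and SEPHS1 siRNA edgeR called none. Among all genes tested, 1.85% were called higher and 1.13% lower with SALL4 siRNA, and 0.445% higher with VRTN siRNA.

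LIN28A, the RNA-binding protein with the highest level of the set, stood above the controls in both groups with a stated harvest at 72 h. LIN28A had 1220, 1220 and 1290 CPM in DSCC1 libraries and 1180, 1160 and 1270 CPM in SEPHS1 libraries, against 838 and 1050 CPM in Luciferase libraries and 952 and 1040 CPM in Control libraries. Neither group overlapped the controls. The log2 fold changes were 0.36 ± 0.09 with DSCC1 siRNA (adjusted p = 0.279) and 0.32 ± 0.09 with SEPHS1 siRNA (adjusted p = 0.0847), neither called by edgeR. DESeq2 called both (0.37, adjusted p = 0.00271 and 0.34, adjusted p = 0.00595), and so did limma-voom (0.36, adjusted p = 0.00718 and 0.30, adjusted p = 0.0244). Without Luciferase replicate 2 the log2 fold changes by edgeR were 0.44 and 0.40. Over 28 alternatives each, both differences were called in only 4. Their log2 fold changes ran from 0.25 to 0.47 with DSCC1 siRNA and from 0.21 to 0.43 with SEPHS1 siRNA. LIN28A had 999, 1000 and 1120 CPM in SALL4 libraries and 1050, 1180 and 1170 CPM in VRTN libraries, which overlapped the controls at log2 fold changes of 0.10 and 0.22 that were not called.

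LIN28B, its paralogue, had the fewest counts of the 9 tested factors, 183 to 405 in a library. LIN28B had 11.1, 10.6 and 12.0 CPM in SALL4 libraries, 8.76, 13.9 and 15 CPM in VRTN libraries, 11.9, 11.1 and 13.2 CPM in DSCC1 libraries and 11.3, 7.81 and 10.9 CPM in SEPHS1 libraries, against 13.9, 11.5, 8.01 and 13.8 CPM in controls. All groups overlapped, and its log2 fold changes of -0.24 to 0.09 had an SE of 0.26 each, the widest of the 9 factors.

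Targets of let-7, pooled in 1 list with host genes of let-7 family microRNAs, moved little at the median. The median covers both kinds and does not give the response of the targets alone. Of 23 let-7 targets and host genes, 21 were tested, with a median log2 fold change of -0.04 with SALL4 siRNA, -0.01 with VRTN siRNA, -0.08 with DSCC1 siRNA and -0.11 with SEPHS1 siRNA. With SALL4 siRNA 2 were lower, the proto-oncogenes MYC (log2 fold change -0.69, adjusted p = 0.00336) and MYCN (-0.55, adjusted p = 0.0045), and none was higher by edgeR. With VRTN siRNA MYCN alone was lower (-0.65, adjusted p = 0.00171), and with DSCC1 and SEPHS1 siRNA edgeR called none of the 21. For comparison, 1.13% of all genes tested were called lower with SALL4 siRNA and 0.683% with VRTN siRNA. Mature let-7 was not measured.

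A wider list of 35 pluripotency genes, all tested, was followed beside the 9 factors. With SALL4 siRNA 4 were higher and 11 lower, where 1.85% of all genes tested were called higher and 1.13% lower. The median log2 fold change was -0.25 against 0.02 over all genes. This list too was chosen with earlier results of these data known. Among the lower were SALL2 (log2 fold change -1.23, adjusted p = 3.74e-09), a paralogue of SALL4, DNMT3B (-1.31) and SEPHS1 (-0.99, adjusted p = 1.13e-05). The higher ones included the NODAL antagonists LEFTY2 (2.37, adjusted p = 0.0028) and LEFTY1 (1.90, adjusted p = 0.0046), all by edgeR. With VRTN siRNA 1 was higher, ZIC2 (0.50, adjusted p = 0.0178), and 3 were lower: MYCN, the adhesion molecule CDH1 (-0.72, adjusted p = 0.00404) and the ETS factor ETV4 (-0.59, adjusted p = 0.00404). With SEPHS1 siRNA TERF1, a telomere-binding protein, was higher (0.77, adjusted p = 0.00764), SEPHS1 itself and SALL2 were lower (SALL2 -0.46, adjusted p = 0.017), and with DSCC1 siRNA edgeR called none. Over all genes tested, 0.445% were called higher and 0.683% lower with VRTN siRNA, and 0.602% and 0.931% with SEPHS1 siRNA.

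**Figure D5:**
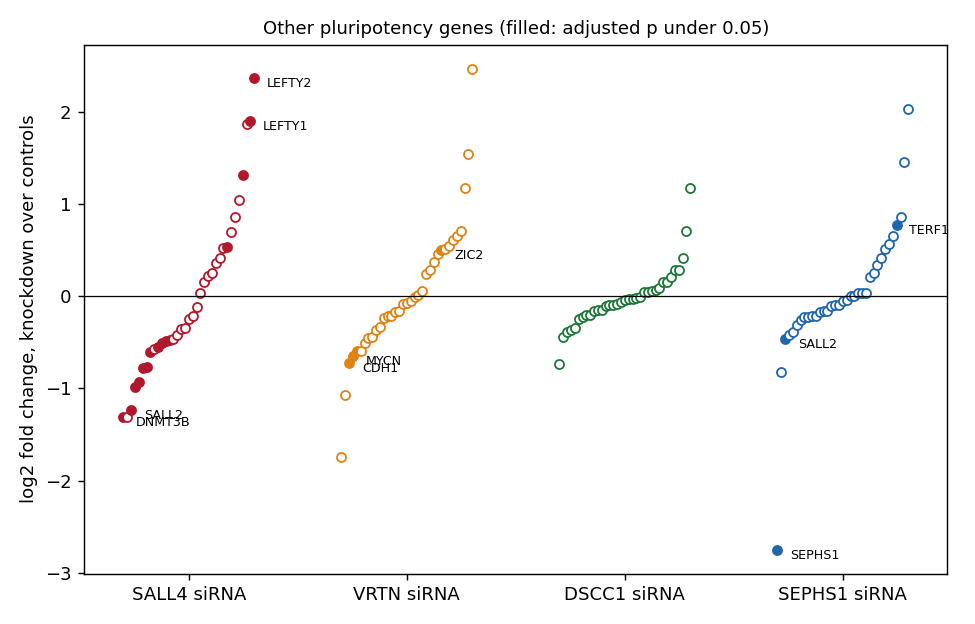
Log2 fold change over controls of 35 other pluripotency genes in each knockdown, ordered by value within a knockdown. Filled points have an adjusted p under 0.05 by edgeR, with up to 2 named in each direction: 4 higher and 11 lower with SALL4 siRNA, 1 and 3 with VRTN siRNA, none with DSCC1 siRNA, 1 and 2 with SEPHS1 siRNA.

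Genes of the naive state, the earlier, preimplantation-like form of pluripotency, were mostly low or not called. Of 15 listed, 11 were tested. With SALL4 siRNA NR5A2, a nuclear receptor, was higher, at 6.31 to 30.5 CPM against 1.94 to 7.6 CPM in controls (log2 fold change 2.11, adjusted p = 0.00775), and the placental-type phosphatase gene ALPG was lower (-1.08, adjusted p = 0.039). With VRTN siRNA ALPG was lower (-1.46, adjusted p = 0.00805), and with DSCC1 and SEPHS1 siRNA edgeR called none. Of 20 chromatin factors that bind OCT4, all tested, MTA1, a NuRD subunit, was higher with SALL4 siRNA (0.51, adjusted p = 0.00865) and KDM1A, a histone demethylase, was lower (-0.87, adjusted p = 0.000541). The other 3 knockdowns had no call among the 20 by edgeR. Beside these 2 lists, 1.85% of all genes tested were called higher and 1.13% lower with SALL4 siRNA, and 0.683% lower with VRTN siRNA.

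Markers of other cell types give the setting for these levels. Summed over 16 primitive streak and mesoderm markers, 12 of them tested, SALL4 libraries had 92.1 to 209 CPM, VRTN libraries 58.7 to 80.3 CPM, DSCC1 libraries 71.6 to 74 CPM and SEPHS1 libraries 67.5 to 90.3 CPM, against 81.6 to 98.2 CPM in controls. Median log2 fold changes of the 12 were 0.87, 0.38, -0.06 and -0.25 in the same order. KDR (log2 fold change 0.91, adjusted p = 0.00743) and WNT3 (2.41, adjusted p = 0.0224) were higher with SALL4 siRNA, and NKX2-5 (-1.10, adjusted p = 0.0348) was lower with SEPHS1 siRNA. WNT3 was called lower there too, at 0 to 0.489 CPM in SEPHS1 libraries and 0.953 to 4.64 CPM in controls (adjusted p = 0.047). The 16 neuroectoderm markers, 11 of them tested, summed to 92.5 to 97.7 CPM in SALL4 libraries, 127 to 140 CPM in VRTN libraries, 142 to 148 CPM in DSCC1 libraries and 96 to 140 CPM in SEPHS1 libraries, against 130 to 140 CPM in controls. The SALL4 sums lay wholly below the controls and the DSCC1 sums wholly above them, but such sums follow the most abundant genes. The median log2 fold change of the 11 tested markers went the other way with SALL4 siRNA, at 2.09, and was 0.01 with DSCC1 siRNA. With VRTN siRNA the SEs of these log2 fold changes ran from 0.12 to 2.31, so medians of this list are imprecise. No direction is therefore given for the list as a whole with SALL4 siRNA. NES, an intermediate filament of neural progenitors, was the only marker of this list called with SALL4 siRNA, and it was lower (-0.67, adjusted p = 0.000784 by edgeR).

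The 14 endoderm markers, 13 of them tested, summed to 20.2 to 40 CPM in the 4 knockdowns, against 18.7 to 29.8 CPM in controls, with no call by edgeR. The 16 trophoblast and amnion markers, 8 of them tested, summed to 10.8 to 25.5 CPM in the 4 knockdowns, against 10.2 to 18.2 CPM in controls, with KRT7 lower with SALL4 siRNA (log2 fold change -2.13, adjusted p = 0.0445). The 12 fibroblast and feeder markers, 10 of them tested, summed to 1680 to 2760 CPM in SALL4 libraries, 1720 to 2280 CPM in VRTN libraries, 2880 to 3190 CPM in DSCC1 libraries and 2130 to 2490 CPM in SEPHS1 libraries, against 2570 to 3100 CPM in controls. DCN and LUM, also on this list, did not pass the filter on low counts. The sums do not measure a share of fibroblasts or feeders. The VRTN and SEPHS1 sums lay wholly below the controls, and the SALL4 and DSCC1 sums overlapped them. Median log2 fold changes of the 10 tested markers were 0.43 with SALL4 siRNA, 0.24 with VRTN siRNA, 0.04 with DSCC1 siRNA and -0.07 with SEPHS1 siRNA. These sums also follow the most abundant genes, and with VRTN siRNA the median went the other way. COL1A1, a fibrillar collagen chain, was lower with SALL4 and VRTN siRNA (-0.82, adjusted p = 0.00498 and -1.28, adjusted p = 4.64e-05). FBLN1, an extracellular matrix glycoprotein, was higher with SALL4 siRNA (0.83, adjusted p = 0.000185), and TAGLN, an actin-binding protein, was lower with SEPHS1 siRNA (-0.65, adjusted p = 0.000758). S100A4, a calcium-binding protein, was also called lower there, at 0 to 0.256 CPM in SEPHS1 libraries and 0.782 to 4.81 CPM in controls (adjusted p = 0.0487), too low for a reliable fold change. The part of these markers in the changes of PRDM14, UTF1, DPPA4 and ZSCAN10 was not tested.

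The genes whose pattern over the 16 libraries was nearest to each called factor were found by the root mean square difference of centred log2 CPM among 9828 genes. Nearest to PRDM14 were PDZD4 (0.15), COMMD7 (0.16) and LNCPRESS2 (0.19), where PRDM14 itself varied by a root mean square of 0.42. Nearest to UTF1 were PHLDA2 (0.24), TTC9 (0.24) and OLFM1 (0.25), against 0.45 for UTF1 itself. DPPA4 was nearest to RIMOC1 (0.11), YWHAZ (0.12) and SLC25A36 (0.13), against its own 0.21, and ZSCAN10 to MFAP2 (0.15), NPRL3 (0.17) and BMP7 (0.17), against its own 0.31. These are descriptions over libraries that share groups, and no test goes with them.

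The 2 control siRNAs were compared with 2 libraries each, too few for a missing call to show that they were alike. POU5F1 had 207 and 207 CPM in Luciferase libraries and 188 and 189 CPM in Control libraries. DPPA4 (275 and 305 against 306 and 319 CPM) and ZSCAN10 (368 and 403 against 408 and 432 CPM) did not overlap either. The other tested factors overlapped. None of the 9 was called between Control and Luciferase libraries by edgeR, with an adjusted p of 1 for each, and none of the 19772 genes tested was called, although 211 had an unadjusted p under 0.05.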

How the data were processed

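Polyadenylated RNA from 16 libraries of H9 cells was sequenced as 80 bp single ends with a Lexogen SENSE kit, per the labels' protocols. The authors deposited raw gene counts, and STAR 2.4.0.1, HTSeq 0.9.1 and GRCh38 are named in the submitters' processing notes. The strand setting, the annotation release and the treatment of reads that match several copies are not given in the sources used here. The labels give 3 independent biological replicates per knockdown and 2 per control siRNA.

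Gene symbols came from a gene name table for 56558 identifiers and from GENCODE release 29 for 497, and 3620 had none. GENCODE also gave positions and exonic lengths. The filter of edgeR 4.0.16 in R 4.3.3 kept 19772 genes, scaling was TMM, and 1 quasi-likelihood fit over 6 groups gave each knockdown against both control siRNAs, weighted equally, and all 6 pairs of knockdowns. Adjusted p is Benjamini-Hochberg over all genes tested, two-sided, and a call needs an adjusted p under 0.05. SE was derived from the log2 fold change and its F statistic. CPM and CPM per kb are TMM-normalised. Floors of 3 counts cover counting error only, since reads carry no molecular identifiers.

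The 10 factors and all lists were chosen with earlier results of these data known. Beyond the factors, the genes named are the siRNA targets, up to 3 called genes per direction with the smallest p in each list, the 3 genes nearest to each called factor and the copies of factors. A gene that this rule selects is not reported here. CBFA2T2 and DPPA2 were named in addition, after their values were seen, as were POLR2A, POLR2F, TCF19, SOX2-OT, DCN and LUM. Alternatives were DESeq2 size factors, upper quartile scaling, other filters, a replicate block, fewer groups or controls, DESeq2 1.42.0, limma-voom (limma 3.58.1), leaving out each library and, added after seeing the data, summed gene copies.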

Additional observations from a re-analysis of the deposited data

Results flagged for a closer look

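SOX2 was set apart in 1 of the 4 control libraries. Control replicate 1 had 178 CPM, while the other 3 control libraries had 204, 205 and 207 CPM, so the gap to the nearest of them was larger than Dixon's 95% criterion for 4 values allows. All 9 factors with counts were checked in this way, and such a criterion flags some groups by chance. SOX2 was called in none of the 4 knockdowns against controls, with or without that library (adjusted p of 0.38 or more over all alternatives).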

How the results depend on the processing

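PRDM14 with SALL4 siRNA and UTF1 with VRTN siRNA kept their calls in 28 of 28 alternatives each (log2 fold changes -1.20 to -1.02 and -1.28 to -1.15), and their calls between knockdowns held in 24 of 24 each. Of 1351 values for 50 results of single factors, 1247 kept direction and side of the threshold, 48 lost a call, 20 gained one and 36 changed sign, none of the last called before or after. These sign changes, by setting, were: Luciferase alone, SOX2 (-0.02) and LIN28B (-0.07) with DSCC1 siRNA and LIN28B (-0.02) and ZSCAN10 (0.03) with VRTN siRNA; Control siRNA alone, POU5F1 (0.04) with DSCC1 and LIN28B (0.04) with SALL4 siRNA; control replicates numbered 1 alone, NANOG (-0.07) with SEPHS1, LIN28B (0.09) with SALL4, ZSCAN10 (0.02) and PRDM14 (0.02) with VRTN siRNA; those numbered 2 alone, SOX2 (-0.03) and LIN28B (-0.06) with DSCC1, LIN28A (-0.01) with SALL4 and LIN28B (0) with VRTN siRNA; limma-voom, LIN28B (-0.03) with VRTN siRNA; copies summed, POU5F1 (0.05) with DSCC1 and NANOG (-0.05) with SEPHS1 siRNA. Leaving out 1 library gave either sign for LIN28B with SALL4 (-0.24 to 0.16), VRTN (-0.08 to 0.31) and DSCC1 siRNA (-0.13 to 0.26), POU5F1 (-0.07 to 0.01) and SOX2 (-0.04 to 0.08) with DSCC1 siRNA, NANOG with SEPHS1 siRNA (-0.03 to 0.19), UTF1 with SALL4 siRNA (-0.22 to 0.06), and ZSCAN10 (-0.2 to 0.06) and PRDM14 (-0.11 to 0.02) with VRTN siRNA.

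The replicate block turned SOX2 (-0.04) and LIN28B (-0.04) with DSCC1 siRNA and called NANOG with SALL4 siRNA (0.60, adjusted p = 0.0045), giving 2 factors called there and 15 genes for DSCC1. The numbers were not used for pairing: 36 same-numbered pairs correlated at -0.32 to 0.36 (median 0.025), 9 of them above 0.1. Pairs of other numbers correlated at -0.42 to 0.42, and 6 of 16 libraries correlated best with their own number. In the control groups of 2 libraries the deviations mirror one another, which draws the median toward zero. Same-numbered Luciferase and Control libraries correlated at 0.34. These values do not settle whether libraries of a number belong together.

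The number of factors called was 1 with SALL4 siRNA and became 2 with DESeq2 size factors, no filter, controls numbered 2 alone or DESeq2, and 3 with limma-voom. It was 2 with VRTN siRNA and became 1 with upper quartile scaling, a fit of the compared groups alone, or 1 control siRNA or 1 control number alone. It was 0 with DSCC1 siRNA and became 1 with controls numbered 1 alone, DESeq2 or limma-voom. It was 1 with SEPHS1 siRNA and became 0 with Luciferase alone, 2 with controls numbered 1 alone or limma-voom and 3 with DESeq2. Leaving out 1 library gave 1 to 2, 1 to 2, 0 to 1 and 0 to 2 in the same order.

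Counts over all genes moved too. For SALL4 (590) they were 349 with only the groups compared, 236 with Luciferase alone, 280 with Control alone, 342 with controls numbered 1 alone and 1291 with limma-voom, and 275 to 924 without 1 library (275 without SALL4 replicate 1, 291 without replicate 2, 924 without replicate 3). For VRTN (223) they were 397 with no filter, 89 with Luciferase alone, 95 with Control alone, 392 with DESeq2 and 348 with limma-voom, and 135 to 341 without 1 library. For DSCC1 (9) they were 99 with no filter, 2 with a minimum of 1 CPM, 37 with only the groups compared, 2 with either control siRNA alone, 109 and 4 with controls numbered 1 or 2 alone, 47 with DESeq2 and 41 with limma-voom, and 2 to 98 without 1 library. For SEPHS1 (303) they were 516, 198, 128 and 103 with no filter, only the groups compared, Luciferase alone and Control alone, 137 with controls numbered 2 alone, 519 with DESeq2 and 158 with limma-voom, and 135 to 472 without 1 library. The causes were not tested. LIN28B, with the fewest counts of the 9 factors, had the widest SE, 0.26.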
